A study of Mus musculus with 4 samples.

Results

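Toll-like receptors are membrane proteins that recognise molecules of microbes and of damaged cells, and *Tlr1* to *Tlr9* together with *Myd88*, the adaptor that most of them share, were followed in the salivary glands of mice that lacked *Nfkbiz*. The members were chosen by gene symbol in the table of normalised array values. All 10 were measured, each by 1 transcript cluster (the set of probes for 1 gene) of 10 probes, among 22206 clusters in all. *Tlr3*, *Tlr7*, *Tlr8* and *Tlr9* were grouped as the endosomal receptors among the members, and *Tlr1*, *Tlr2*, *Tlr4*, *Tlr5* and *Tlr6* as surface receptors.

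RNA came from 4 female mice aged 20 weeks, 2 of them Nfkbiz-/- (M47, M49) and 2 wild type, Nfkbiz+/+ (M30, M55), with 1 Affymetrix whole-transcript array per mouse and no cohousing of the genotypes after weaning. The mice lacked *Nfkbiz* from the germline on, and the labels name no further allele and no treatment but anaesthesia before dissection. By the methods, mice of both genotypes were also injected with pilocarpine, a drug that stimulates saliva flow, so that saliva could be collected at weaning and again at the age when the glands were taken. The parotid, sublingual and submandibular glands of a mouse were extracted together, so a value averages over the gland epithelium, the stroma and any infiltrating cells. The methods describe the line on a mixed background of inbred strains, whereas the label of M47 names ICR, an outbred stock, and the remaining labels name no strain.

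Surface receptors bind bacterial lipids, lipopeptides and flagellin at the plasma membrane, and endosomal receptors bind nucleic acids after internalisation. Ligand binding brings Myd88, or for Tlr3 the adaptor Ticam1, to the receptor, kinases of the Irak family and the ubiquitin ligase Traf6 follow, and NF-κB and interferon regulatory factors enter the nucleus. *Nfkbiz*, which encodes the nuclear protein IκB-ζ, is induced along this route and is needed in macrophages for a second wave of response genes such as *Il6*, so the receptors and Myd88 stand upstream of the deleted gene. In mice, *Tlr7* and *Tlr9* are known mainly from B cells, plasmacytoid dendritic cells and macrophages.

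The lower quartile of the array values lay between 3.44 and 3.53 on the log2 scale and the median between 4.83 and 4.89 in the 4 mice. A cluster was called where limma gave an unadjusted p under 0.05 together with a change of 1.5-fold or more, the thresholds of the study, which 6.62% of all clusters passed (2.93% higher and 3.69% lower in Nfkbiz-/- mice). No cluster had an adjusted p under 0.05 in limma, where 2015 had an unadjusted p under 0.05. Without moderation of the variance over clusters, the test named in the methods gave 2 clusters such an adjusted p with equal variances and 1 with unequal variances. The 2 Nfkbiz-/- arrays correlated at r = 0.981 and the 2 Nfkbiz+/+ arrays at 0.971, while pairs of unlike genotype lay between 0.969 and 0.974. The targeted gene had a log2 signal of 6.18 (M47) and 5.78 (M49), against 5.04 (M30) and 7.29 (M55), so both Nfkbiz-/- values lay between the Nfkbiz+/+ values. No source used here says which exons of *Nfkbiz* the probes match, and these values therefore do not check the genotypes.

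Of the 10 members, *Tlr7* and *Tlr9* were higher and *Tlr1* was lower in Nfkbiz-/- mice by limma at these thresholds, and the other 7 were not called. That is 3 of 10 members, beside 6.62% of all clusters. The same 3 members were those whose values did not overlap between genotypes, which was the case for 39.7% of all clusters (18.2% higher and 21.5% lower). The lowest adjusted p among the members was 0.468 (limma with Benjamini-Hochberg adjustment over all clusters), so none passed that correction. With 2 mice per genotype, an exact two-sided permutation test of a single gene cannot give a p below 0.33.

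Promoter sequence is shown for the 2 called members that the RefSeq promoter table holds, *Tlr9* and *Tlr1*, and for *Myd88*, the adaptor downstream of both. The table (build GRCm38.p6) held 8 of the 10 members, with 10 promoters, and no entry for *Tlr4* and *Tlr7*. In the 250 bases before each start, both strands were searched for the interferon-stimulated response element (GAAA, any 2 bases, GAAA), a kappaB site (GGGA, any base, TTTCC) and a site of the myeloid and B cell factor PU.1 (GAGGAAG). Capitals mark the matches.
*Tlr9* (chr9:106222348-106222597, plus strand): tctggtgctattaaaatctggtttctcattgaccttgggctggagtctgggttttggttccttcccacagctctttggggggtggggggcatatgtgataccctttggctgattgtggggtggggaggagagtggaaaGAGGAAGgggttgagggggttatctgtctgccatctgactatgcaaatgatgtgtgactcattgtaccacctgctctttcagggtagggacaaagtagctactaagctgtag
*Tlr1* (chr5:64933559-64933808, minus strand): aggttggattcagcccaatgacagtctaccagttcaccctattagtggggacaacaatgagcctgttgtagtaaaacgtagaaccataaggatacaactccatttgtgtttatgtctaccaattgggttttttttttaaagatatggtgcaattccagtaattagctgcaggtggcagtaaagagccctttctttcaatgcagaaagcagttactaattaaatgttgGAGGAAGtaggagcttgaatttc
*Myd88* (chr9:119340019-119340268, minus strand): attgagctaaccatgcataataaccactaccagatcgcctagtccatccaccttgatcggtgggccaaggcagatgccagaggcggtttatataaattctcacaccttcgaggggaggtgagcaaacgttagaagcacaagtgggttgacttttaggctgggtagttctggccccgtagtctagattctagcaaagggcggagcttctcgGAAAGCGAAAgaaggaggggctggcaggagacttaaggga
The *Tlr9* promoter held the PU.1 letters from −112 to −106, counted in bases from the start. Of the *Tlr1* promoters, only the one shown held them, from −23 to −17. These letters were found in 10.6% of 32851 promoters of this length. The *Myd88* promoter held the interferon-stimulated response element from −40 to −31, a motif found in 2.98% of promoters. Among the other members, *Tlr3* held the kappaB letters from −211 to −202, letters that 0.356% of promoters held. One of the *Tlr6* promoters held 2 overlapping interferon-stimulated response elements on the strand opposite to the gene. *Tlr2*, *Tlr5*, *Tlr8* and the other promoters of *Tlr1* and *Tlr6* held none of the 3 motifs. A match describes letters only, and binding was not measured.

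*Tlr7*, the endosomal receptor for single-stranded RNA, showed the clearest separation of the members. It is annotated on chromosome X from 167304929 to 167330558, minus strand (position as in the deposited annotation, overlapping the gene in GRCm38.p6). Its log2 signal was 5.94 (M47) and 5.95 (M49), against 5.01 (M30) and 5.07 (M55). Both Nfkbiz-/- values lay 0.87 or more above both Nfkbiz+/+ values, and mice of 1 genotype differed little (5.94 ± 0.0056 and 5.04 ± 0.0406, SD, n = 2 each). The log2 fold change was 0.90 (SE 0.20), a 1.87-fold higher signal, with an unadjusted p of 0.00231 and an adjusted p of 0.468 (limma). Leaving out any 1 mouse gave 0.87 to 0.93, and the call was kept each time.

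*Tlr9*, the endosomal receptor for unmethylated CpG DNA, was also called higher. It is annotated on chromosome 9 from 106222598 to 106226876, plus strand. Its log2 signal was 4.22 (M47) and 4.42 (M49), against 3.71 (M30) and 3.49 (M55). The genotypes were 0.51 apart at their nearest, and the Nfkbiz+/+ values lay close to the lower quartile of their arrays (3.53 and 3.44). The log2 fold change was 0.72 (SE 0.21), a 1.65-fold higher signal, with an unadjusted p of 0.0105 and an adjusted p of 0.468 (limma). Without M49 it was 0.62 and no longer called (unadjusted p = 0.0795, limma).

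*Tlr3* and *Tlr8* were not called. *Tlr3*, the receptor for double-stranded RNA that signals through Ticam1 and not Myd88, had a log2 signal of 7.76 (M47) and 7.21 (M49), against 6.81 (M30) and 7.26 (M55). M47 was above both Nfkbiz+/+ mice, whereas M49 lay between them, and the log2 fold change was 0.45 (SE 0.27, adjusted p = 0.669, limma). *Tlr8*, which in humans recognises single-stranded RNA, had a log2 signal of 4.42 (M47) and 3.60 (M49), against 3.72 (M30) and 3.61 (M55). Only M47 stood apart, and the log2 fold change of 0.35 (SE 0.29, adjusted p = 0.775, limma) rested on that mouse. It was −0.06 without M47 and 0.76 without M49, where it passed both thresholds (unadjusted p = 0.0364, limma). *Tlr8* lies 40.6 kb from *Tlr7* on chromosome X.

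**Figure D1:**
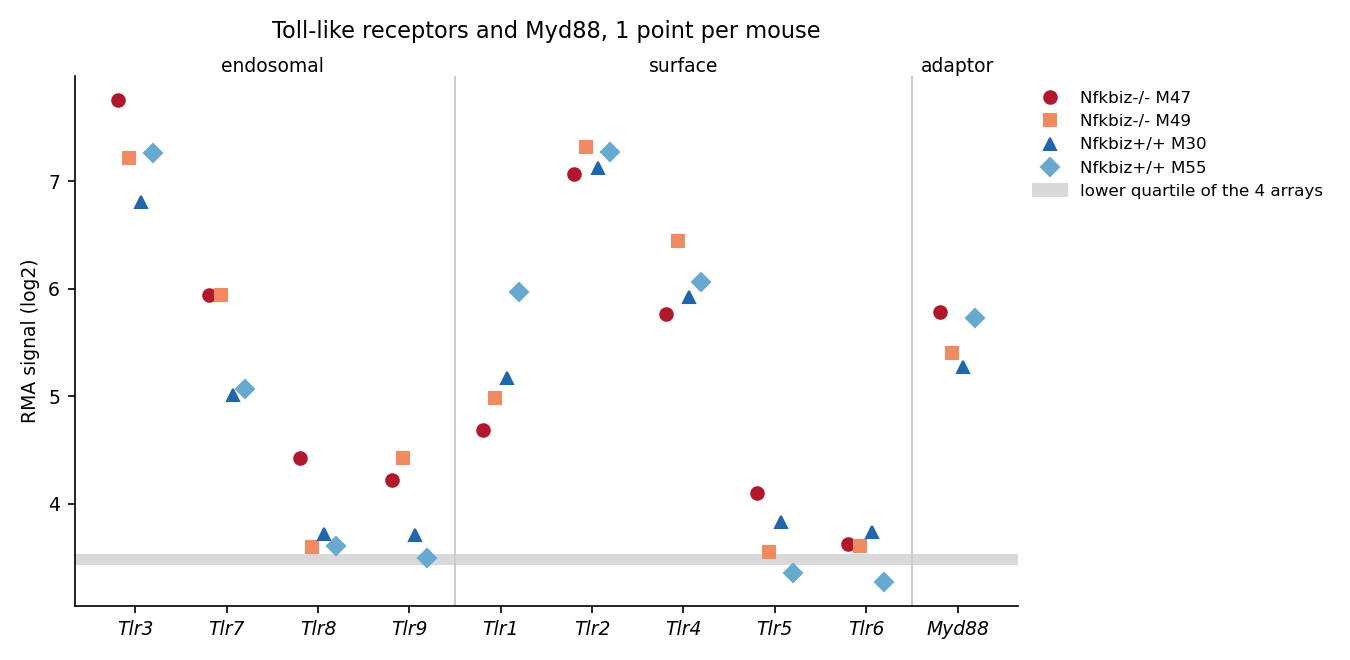
Log2 RMA signal (y axis) of the 10 members (x axis) in each of the 4 mice, 1 point per mouse, with the band of the arrays' lower quartiles (3.44 to 3.53) in grey. Genotypes separate for *Tlr7* (5.94 and 5.95 against 5.01 and 5.07), *Tlr9* and *Tlr1*, and overlap for the other 7. Heights of different genes are not comparable, since each has its own probes.

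*Tlr1*, which pairs with Tlr2 to bind triacylated lipopeptides, was the only member called lower. It is annotated on chromosome 5 from 64924680 to 64933560, minus strand. Its log2 signal was 4.68 (M47) and 4.99 (M49), against 5.18 (M30) and 5.97 (M55). The nearest mice of unlike genotype were 0.19 apart, and the Nfkbiz+/+ mice differed more from each other (5.57 ± 0.56, SD, n = 2) than M30 did from the Nfkbiz-/- mice. The difference on the log2 scale was −0.74 (SE 0.30), a 1.67-fold lower signal, with an unadjusted p of 0.0394 and an adjusted p of 0.522 (limma). Without M55 it was −0.34 (unadjusted p = 0.224) and without M47 −0.58 (unadjusted p = 0.167), and in neither case was it called by limma. The unmoderated test that the methods name did not call it either. M55 was also the mouse with the highest signal of fat and muscle genes, as the summed linear signal of 5 fat cell genes was 729 in M55 and 89.98 to 124 in the other 3 mice, and that of 5 skeletal muscle genes was 348 and 71.2 to 84.3. Their part in the *Tlr1* value was not tested.

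*Tlr2*, the partner of Tlr1 and Tlr6 in lipopeptide binding, had a log2 signal of 7.07 (M47) and 7.31 (M49), against 7.12 (M30) and 7.27 (M55). The genotypes overlapped fully, and the log2 fold change was −0.01 (SE 0.21, adjusted p = 0.999, limma). *Tlr6*, which pairs with Tlr2 for diacylated lipopeptides and lies 19.5 kb from *Tlr1*, had a log2 signal of 3.63 (M47) and 3.61 (M49), against 3.74 (M30) and 3.28 (M55). Its values stayed near the lower quartile of the arrays in each mouse, with M55 the lowest, and the log2 fold change was 0.11 (SE 0.23, adjusted p = 0.930, limma).

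*Tlr4*, the receptor for lipopolysaccharide, had a log2 signal of 5.77 (M47) and 6.44 (M49), against 5.93 (M30) and 6.07 (M55). The Nfkbiz-/- mice held both the lowest and the highest value, and the log2 fold change was 0.11 (SE 0.27, adjusted p = 0.943, limma). *Tlr5*, the receptor for flagellin, had a log2 signal of 4.10 (M47) and 3.55 (M49), against 3.83 (M30) and 3.35 (M55). One mouse of each genotype was near the lower quartile, and the log2 fold change was 0.23 (SE 0.27, adjusted p = 0.858, limma).

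*Myd88*, the adaptor of all these receptors except Tlr3, and of the receptors for interleukin-1 and interleukin-18, had a log2 signal of 5.79 (M47) and 5.40 (M49), against 5.27 (M30) and 5.73 (M55). It is annotated on chromosome 9 from 119335934 to 119341411, minus strand. Each genotype held 1 higher and 1 lower mouse, and the log2 fold change was 0.09 (SE 0.25, adjusted p = 0.950, limma), with a sign that turned without M47 (−0.10) or without M30 (−0.14).

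**Figure D2:**
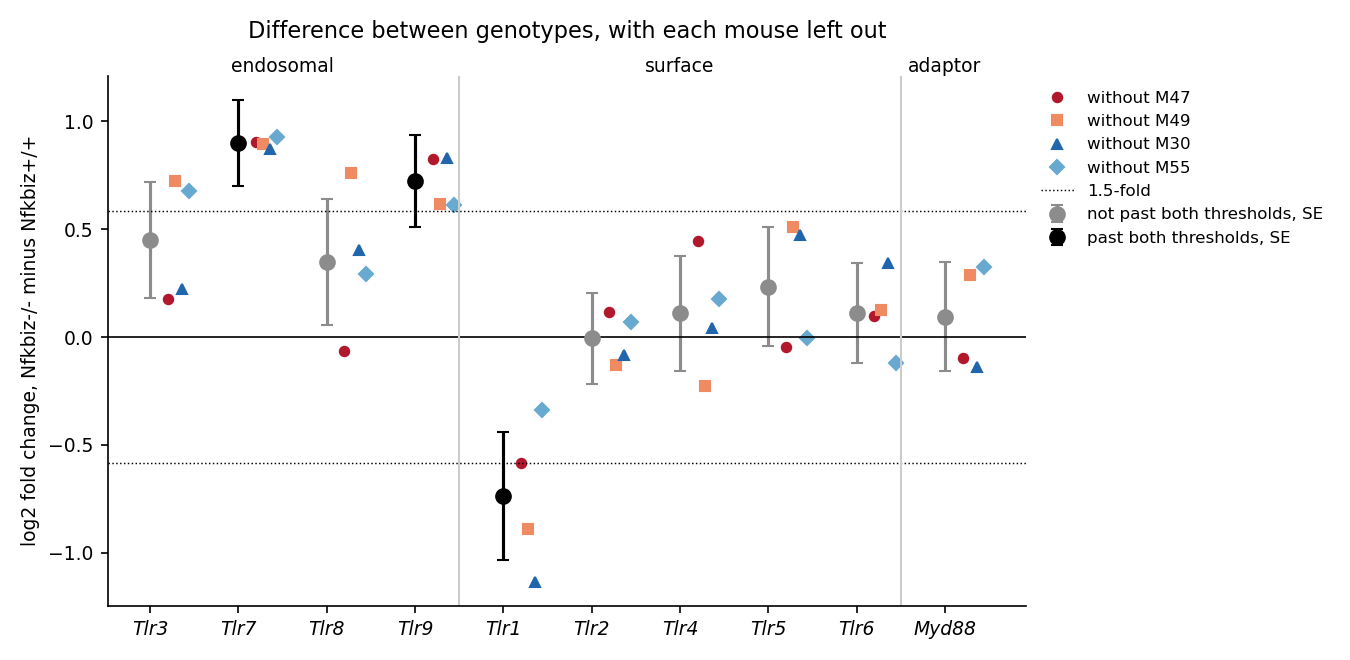
Log2 fold change of each member (y axis, Nfkbiz-/- minus Nfkbiz+/+; large points, bars are the limma SE) and the same value with each mouse left out (small symbols). *Tlr7* stays between 0.87 and 0.93, while *Tlr8* runs from −0.06 to 0.76 and *Tlr1* from −1.13 to −0.34. Dotted lines mark a 1.5-fold change, and black points passed both thresholds.

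The 4 endosomal receptors among the members had positive log2 fold changes, beside 46.9% of all clusters, with a median of 0.59 and a range of 0.35 to 0.90. Of these, 2 were called higher, beside 2.93% of all clusters. The 5 surface receptors had a median of 0.11 and a range of −0.74 to 0.23. None of them was called higher and 1 was called lower, beside 3.69% of all clusters. The medians of the classes were 0.48 apart on the log2 scale, and the median over the 10 members was 0.17, beside −0.02 over all clusters. No test was made between the classes, since their members were few and were chosen with results of these arrays known. The mean deviation of the endosomal receptors from each gene's own mean was 0.45 (M47) and 0.16 (M49), against −0.32 (M30) and −0.28 (M55). M47 was highest, and M49 was above both Nfkbiz+/+ mice by way of *Tlr7* and *Tlr9*. For the surface receptors it was −0.09 (M47) and 0.04 (M49), against 0.01 (M30) and 0.04 (M55), with no separation of the genotypes. Leaving out M49 widened the difference between the class medians to 0.87, and leaving out each of the other 3 mice gave 0.40 or more. With *Tlr11*, *Tlr12* and *Tlr13*, further receptors of mice that also act in endosomes, 5 of 7 endosomal receptors had a positive log2 fold change and their median was 0.35. The mean deviation over the 7 was 0.30 (M47) and 0.01 (M49), against −0.18 (M30) and −0.13 (M55), so that M49 was closer to the Nfkbiz+/+ mice than over the 4.

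**Figure D3:**
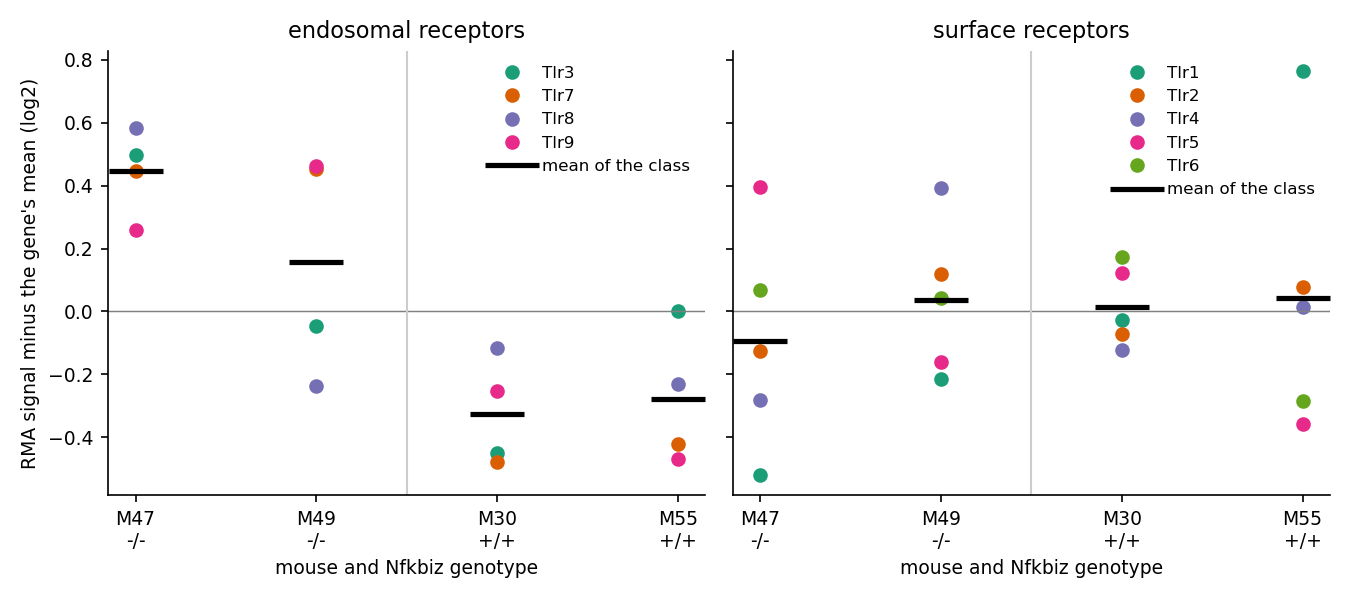
Log2 signal of each endosomal (left) and surface (right) receptor minus that gene's mean over the 4 mice (y axis), by mouse (x axis), with the class mean as a bar. The endosomal means are 0.45 and 0.16 for M47 and M49 against −0.32 and −0.28 for M30 and M55, and the surface means lie between −0.09 and 0.04.

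The 3 receptors that mice have beyond these are endosomal too and were measured. *Tlr11*, a receptor for profilin of *Toxoplasma* parasites, had a log2 signal of 2.42 (M47) and 2.26 (M49), against 2.68 (M30) and 2.59 (M55). *Tlr12*, which recognises the same protein, had one of 3.55 (M47) and 3.68 (M49), against 3.94 (M30) and 3.85 (M55). Both were lower in each Nfkbiz-/- mouse without overlap (log2 fold changes of −0.30 and −0.28), as were 21.5% of all clusters. Neither was called, and *Tlr11* was below the lower quartile in each array. *Tlr13*, a receptor for bacterial ribosomal RNA, had a log2 fold change of 0.33 and was not called. *Tlr13* had a log2 signal of 4.96 (M47) and 4.07 (M49), against 4.02 (M30) and 4.35 (M55). As with *Tlr8*, M47 alone was high, and the difference passed both thresholds (0.77, unadjusted p = 0.0401, limma) when M49 was left out.

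Of 72 other genes of the receptor pathway, in 9 lists from further receptors to response genes, 8 were called higher and none lower (11.1%, beside 6.62% of all clusters). Their median log2 fold change was 0.07, and 46 of them (63.9%) were above 0, beside 46.9% of all clusters. The unmoderated test with unequal variances called 1 of the 72, *Pik3ap1*, where 0.955% of all clusters were called. By the unmoderated test with equal variances 2 of the 72 were called, *Cd180* and *Pik3ap1*, where 2.14% of all clusters were, and without a mouse limma called between 3 (without M47) and 15 (without M55). The direction was not always higher: without M47 limma called 3 higher and none lower, without M49 6 higher and 1 lower, without M30 7 higher and 5 lower, and without M55 14 higher and 1 lower.

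Among 6 co-receptors of the surface receptors, 1 was called higher by limma, beside 2.93% of all clusters, and the median log2 fold change was −0.02. *Cd180*, a receptor of B cells and macrophages that resembles Tlr4, had a log2 signal of 5.47 (M47) and 5.51 (M49), against 4.57 (M30) and 4.12 (M55). The genotypes did not overlap, and the log2 fold change of 1.15 (SE 0.23, adjusted p = 0.468, limma) stayed called whichever mouse was left out. The unmoderated test called *Cd180* with equal variances (unadjusted p = 0.0357) but not with unequal variances (unadjusted p = 0.119). *Cd14*, which hands lipopolysaccharide to Tlr4, had a log2 signal of 6.26 (M47) and 6.01 (M49), against 5.38 (M30) and 6.65 (M55). The Nfkbiz+/+ mice lay on both sides of the Nfkbiz-/- mice, and the log2 fold change of 0.12 (SE 0.39, adjusted p = 0.960, limma) was 0.75 and called without M55. *Ly96*, the lipopolysaccharide-binding partner of Tlr4, had a log2 fold change of −0.08 (SE 0.21, adjusted p = 0.950, limma). *Lbp*, *Cd36* and *Ly86* were not called.

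Endosomal receptors depend on Unc93b1, which carries them out of the endoplasmic reticulum, and on proteases that cut them in the endosome. Of 9 genes of receptor trafficking and processing, limma called 2 proteases higher, beside 2.93% of all clusters. The unmoderated test called none of the 9, with equal or unequal variances. Values of 5 did not overlap between genotypes, each of them higher in Nfkbiz-/- mice, beside 18.2% of all clusters. The median log2 fold change of the list was 0.27. *Unc93b1* had a log2 signal of 6.64 (M47) and 6.27 (M49), against 5.93 (M30) and 6.06 (M55). Neither Nfkbiz+/+ mouse reached the level of an Nfkbiz-/- mouse, but the log2 fold change of 0.46 (SE 0.22, adjusted p = 0.591, limma) was not called. *Ctss* (cathepsin S) had a log2 signal of 7.996 (M47) and 7.40 (M49), against 6.95 (M30) and 7.07 (M55). Its log2 fold change of 0.69 (SE 0.25, adjusted p = 0.509, limma) was no longer called without M47 (0.39), M30 (0.63) or M55 (0.74). *Lgmn* (legumain, an asparagine endopeptidase) had a log2 signal of 7.39 (M47) and 7.09 (M49), against 6.87 (M30) and 6.35 (M55). Its log2 fold change of 0.63 (SE 0.25, adjusted p = 0.522, limma) was no longer called without M47 (0.49), M49 (0.78) or M55 (0.37).

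Of 5 adaptors other than *Myd88*, 2 were called higher by limma, beside 2.93% of all clusters. The unmoderated test called 1 of the 5, *Pik3ap1*, with equal and with unequal variances. *Sarm1* was lower without overlap (log2 fold change −0.23), but it was not called and lay below the lower quartile in each array. *Pik3ap1*, which links Toll-like receptors to phosphoinositide 3-kinase, had a log2 signal of 7.66 (M47) and 7.73 (M49), against 6.91 (M30) and 6.96 (M55). Like *Tlr7* it separated the genotypes with little spread within them, and its log2 fold change of 0.76 (SE 0.20, adjusted p = 0.468, limma) stayed called whichever mouse was left out. *Tirap*, which bridges Myd88 to Tlr2 and Tlr4, had a log2 signal of 7.28 (M47) and 7.62 (M49), against 6.80 (M30) and 6.91 (M55). Its log2 fold change of 0.59 (SE 0.22, adjusted p = 0.509, limma) was no longer called without M49 (0.42) or M30 (0.54). *Ticam1*, the adaptor of Tlr3 and, with Ticam2, of Tlr4, had a log2 fold change of 0.07 (SE 0.21, adjusted p = 0.953, limma).

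Downstream of the adaptors, limma called 1 of 14 kinases and ubiquitin ligases higher, beside 2.93% of all clusters. The unmoderated test called none of the 14, with equal or unequal variances. The gene called by limma was *Irak1*, with a log2 signal of 8.03 (M47) and 7.88 (M49), against 7.59 (M30) and 7.14 (M55). Its log2 fold change of 0.59 (SE 0.23, adjusted p = 0.522, limma) lay just past the fold threshold, and it was not called without M47 (0.51), M49 (0.66) or M55 (0.36). *Irak4*, the first kinase recruited to Myd88, and *Traf6* had log2 fold changes of −0.05 (SE 0.20) and −0.04 (SE 0.20).

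Of 8 transcription factors, limma called 1 higher, *Irf7*, beside 2.93% of all clusters. The unmoderated test called none of the 8, with equal or unequal variances. *Irf7*, an interferon regulatory factor, acts with Myd88 downstream of Tlr7 and Tlr9 to induce type I interferon, and is itself induced by interferon. It had a log2 signal of 6.72 (M47) and 5.71 (M49), against 5.27 (M30) and 4.42 (M55). The genotypes did not overlap, though M49 was nearer to M30 than to M47, and the log2 fold change was 1.37 (SE 0.39, adjusted p = 0.468, limma). It was 0.86 without M47 and 0.94 without M55, and not called in either case.

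Of 9 negative regulators, limma called 1 higher, beside 2.93% of all clusters, and the unmoderated test called none, with equal or unequal variances. The gene called by limma, *Irak3*, an inhibitor of Irak signalling, had a log2 signal of 6.97 (M47) and 7.21 (M49), against 6.25 (M30) and 6.67 (M55). Its log2 fold change of 0.63 (SE 0.23, adjusted p = 0.509, limma) was no longer called without M47 (0.75), M49 (0.51) or M30 (0.42). *Nfkbia*, which encodes the NF-κB inhibitor IκBα, was not called, with a log2 signal of 8.63 (M47) and 8.16 (M49), against 7.24 (M30) and 9.61 (M55). The Nfkbiz+/+ mice were the extremes, so that the log2 fold change of −0.03 became −1.22 without M30 and 1.16 without M55, past both thresholds each time.

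None of 13 cytokine and response genes was called, with a median log2 fold change of 0.12. *Tnf*, a cytokine that the receptors induce early, had a log2 signal of 5.74 (M47) and 4.03 (M49), against 2.99 (M30) and 6.15 (M55). The order of the mice, with M55 highest and M30 lowest, was that of *Nfkbia* and of *Nfkbiz* itself, and it was not that of *Tlr7* or *Tlr9*. *Il6*, whose induction depends on IκB-ζ in macrophages, was below the lower quartile in each array (2.04 to 2.14). None of 5 receptors of the interleukin-1 family that use Myd88 was called either, with a median of 0.02.

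**Figure D4:**
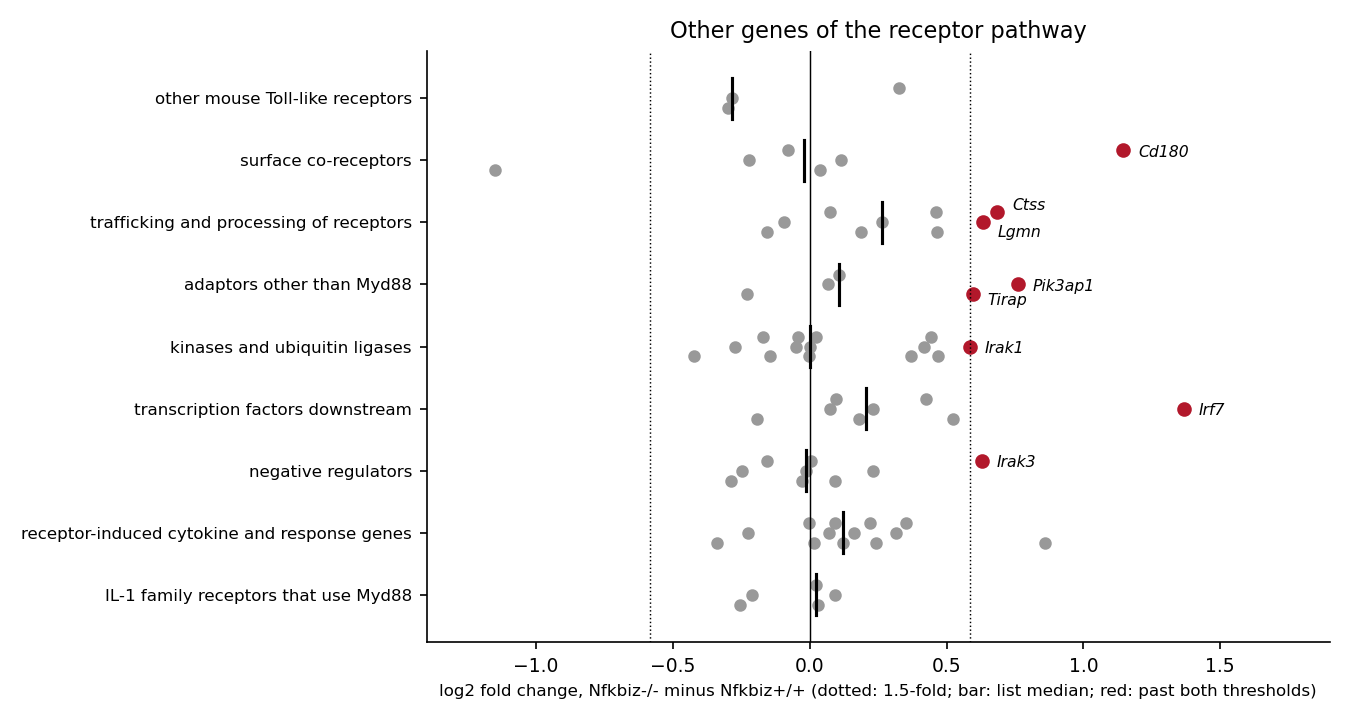
Log2 fold change (x axis, Nfkbiz-/- minus Nfkbiz+/+) of 72 further genes of the receptor pathway, 1 point per gene, by list (y axis), with the list median as a bar and dotted lines at a 1.5-fold change. The 8 genes past both thresholds are in red and named, and each lies on the higher side.

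Genes of some cell types differed between the genotypes as well. In RNA from whole glands, fewer cells of a type and less RNA per cell cannot be told apart. Of 10 macrophage genes, 4 were called higher, beside 2.93% of all clusters, and 9 were higher in Nfkbiz-/- mice without overlap, beside 18.2% of all clusters. By the unmoderated test 1 of the 10 was called with equal variances, *Mrc1*, and none with unequal variances. The summed linear signal was 569 to 625 there against 352 to 458 in Nfkbiz+/+ mice. The called genes were *Cd68*, a lysosomal protein (log2 fold change 1.13), *C1qa*, a chain of complement C1q (0.96), *Mrc1*, the mannose receptor (0.82) and *Itgam*, an integrin (0.78). *Cd68* was not called without M47 (0.93) or M30 (0.47), nor *Itgam* without M47 (0.58) or M55 (0.53), and between 2 and 6 of the 10 genes were called higher by limma without 1 mouse. *Adgre1*, which encodes the macrophage marker F4/80, had a log2 fold change of −0.47 with overlap. The macrophage genes ranked the mice in the order M47, M49, M55 and M30, so that M47 and M49 were above the Nfkbiz+/+ mice as they were for the 4 endosomal receptors. T cell genes (mean deviation 0.53 and 0.06 against −0.60 and 0.01) and granular duct genes (0.21 and 0.19 against −0.47 and 0.07) also placed M47 and M49 above both Nfkbiz+/+ mice. The macrophage genes' part in the *Tlr7* and *Tlr9* values was not tested.

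Of 6 B cell genes none was called, and the summed signal was 70.9 to 94.2 in Nfkbiz-/- mice against 54.8 to 74.9 in Nfkbiz+/+ mice. Of 7 genes of plasmacytoid and conventional dendritic cells none was called, the summed signal was 89.9 to 96.1 and 94.3 to 95.2, and *Ccr9*, *Flt3* and *Xcr1* were below the lower quartile in each array. Of 6 neutrophil genes 1 was called lower by limma, beside 3.69% of all clusters. This was *Mmp8*, which like *S100a8* and *Ly6g* was below the lower quartile in each array. None of 6 T cell genes was called, and their summed signal was 380 to 1391 in Nfkbiz-/- mice against 189 to 639 in Nfkbiz+/+ mice. Most of that range came from *Cd3e*, a chain of the T cell receptor complex, with a log2 signal of 10.25 (M47) and 7.28 (M49), against 4.65 (M30) and 8.92 (M55). Without it the summed signal was 176 to 225 in Nfkbiz-/- mice against 156 to 164 in Nfkbiz+/+ mice. None of 5 endothelial, 5 fibroblast or 4 measured acinar genes was called. Of 5 granular duct genes, *Egf* (0.73) and *Ren1* (0.75) were higher. Fat cell genes (3 of 5) and muscle genes (2 of 5) were called lower by limma, beside 3.69% of all clusters, with M55 high, as above. The unmoderated test called none of the fat cell or muscle genes. The red cell list holds *Hba-a1* and *Hba-a2*, whose values were identical in each array and count as 1 measurement. Of the 4 distinct measurements 3 were called lower by limma, with a summed signal of 166 to 506 in Nfkbiz-/- mice against 2451 to 4079 in Nfkbiz+/+ mice. With equal variances the unmoderated test called only the measurement shared by *Hba-a1* and *Hba-a2*, and with unequal variances none. The part of these lists in the receptor values was not tested.

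Genes induced by interferon, some of which lie downstream of the endosomal receptors through *Irf7*, were examined as well. Of 15, 13 were called higher by limma, beside 2.93% of all clusters, and the median log2 fold change was 1.62. The 4 with the largest moderated statistic were *Oas1a* (1.92), *Ifi44* (2.32), *Stat2* (1.32) and *Usp18* (1.67). Limma called between 11 and 13 of the 15 without 1 mouse. The unmoderated test called 4 with equal variances (the same *Oas1a*, *Ifi44*, *Stat2* and *Usp18*), beside 1.02% of all clusters, and 2 with unequal variances (*Oas1a* and *Usp18*), beside 0.482%. The mean deviation over the list was 1.08 (M47) and 0.38 (M49), against −0.77 (M30) and −0.68 (M55). The order of the mice was that of the mean over the 4 endosomal receptors, with M47 highest and M30 lowest in both. It was not that of *Tlr7* or *Tlr9*. M49 was above M47 for *Tlr7* (5.95 against 5.94) and for *Tlr9* (4.42 against 4.22), and M55 was lowest for *Tlr9* (3.49). No relation between the interferon-induced genes and the receptors was tested over 4 mice.

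**Figure D5:**
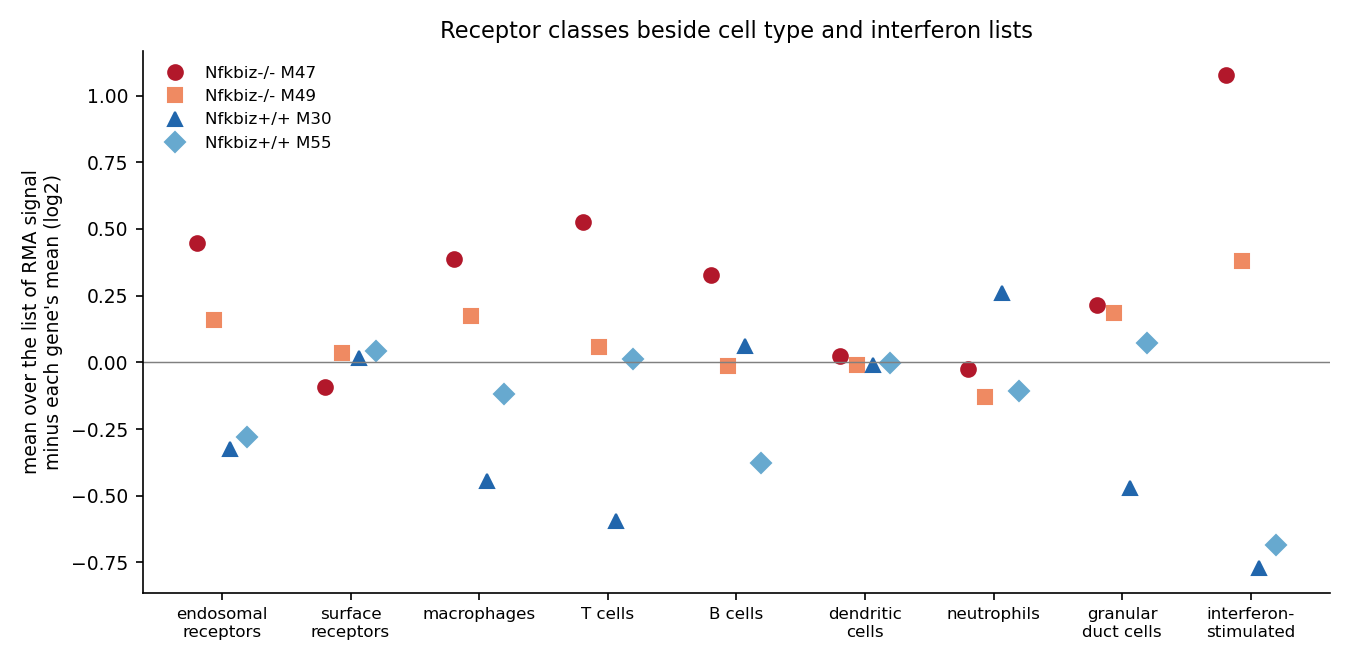
Mean over each list of the log2 signal minus each gene's mean (y axis), by list (x axis), 1 point per mouse. The 4 endosomal receptors, the macrophage, T cell (0.53 and 0.06 against −0.60 and 0.01) and granular duct genes and the interferon-stimulated genes (1.08 and 0.38 against −0.77 and −0.68) place both Nfkbiz-/- mice above both Nfkbiz+/+ mice, and the surface receptors, the B cell, dendritic cell and neutrophil genes do not.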

How the data were processed

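Salivary gland RNA of 4 mice was hybridised to 1 Affymetrix whole-transcript array each. Labelling used the WT PLUS kit. The authors summarised probes into clusters by robust multiaverage analysis, which corrects background and normalises by quantiles, with Affymetrix Power Tools. The deposited values are log2 signals between 0.904 and 13.3, and a second deposited table holds the same values (largest difference 0). No source used here names the annotation release. Of 21008 clusters with a gene on the same chromosome in GRCm38.p6, 20772 (98.9%) overlapped it, the 10 members among them. Columns and tables with the authors' own fold changes, p-values and enrichments were not used.

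Genotypes came from the labels. limma 3.58.1 under R 4.3.3 (lmFit, then eBayes) compared Nfkbiz-/- with Nfkbiz+/+ mice over all 22206 clusters, with 2 residual degrees of freedom and 5.53 from the prior, and p-values were adjusted by Benjamini-Hochberg over that whole table. The script was tested on simulated data. A gene with more than 1 cluster was represented by its brightest. Likeness between genes was the root mean square distance between values centred on each gene's mean. Summed signals add 2 to the power of each log2 value. A limma p-value here rests on a variance drawn partly from the 4 mice and partly from all clusters. The SE of *Tlr7* was 0.20 by limma and 0.0290 by the unmoderated test with equal variances. For *Tlr1* it was 0.30 and 0.42. With 2 mice per group the spread between mice is poorly known, so both p-values are imprecise.

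Named genes were the members, *Nfkbiz*, 8 partners of the members whatever their values, up to 4 called genes per list, and the 3 genes most like the member with the smallest p in each class. *Tlr11* to *Tlr13*, *Adgre1*, *Nfkbia*, *Tnf*, *Il6* and list genes named as not called or dim were added after their values were seen. The members and lists were chosen with earlier results of these data known. Alternatives were t-tests with equal or unequal variances, an intensity trend, repeated quantile normalisation, arrays centred on their median, a filter at the median signal, 1 cluster for every gene, the second table, a 2-fold threshold and omission of each mouse. For list counts, that omission and both t-tests were additions made with the values in view, as were the sums without *Cd3e* or *Hba-a2* and the endosomal median with *Tlr11* to *Tlr13*.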

Additional observations from a re-analysis of the deposited data

How the results depend on the processing

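The 3 members called became 2 (*Tlr7* and *Tlr9*) by either t-test, 2 of the 6 members left above the median signal, 0 at a 2-fold threshold, and 2 to 3 without a mouse. *Tlr7* kept its direction and its call in all 12 alternatives that gave it a value at the 1.5-fold threshold, and *Tlr3* kept its direction (0.18 to 0.72 without a mouse). *Tlr9* lost its call without M49 alone (0.61 to 0.83 without a mouse) and had no value above the median signal. *Tlr1* (−1.13 to −0.34) lost it by both t-tests and without M47 or M55. *Tlr2* turned to 0.0206 under another quantile normalisation and to 0.0086 on median-centred arrays, and without a mouse it ran from −0.13 to 0.12. Signs also turned without a mouse for *Tlr4* (−0.23 to 0.45), *Tlr5* (−0.0443 to 0.51), *Tlr6* (−0.12 to 0.34), *Tlr8* (−0.0634 to 0.76) and *Myd88* (−0.14 to 0.33).

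The endosomal median was 0.50 to 0.74, the surface median −0.13 to 0.10 and their difference 0.40 to 0.87 without a mouse. The surface median was −0.0061 over the 3 genes above the median signal. Clusters called numbered 1471 in the main analysis, 475 and 212 by the t-tests with equal and unequal variances, 901 above the median signal, 200 at 2-fold, and 1122 to 2690 without a mouse. Clusters with an adjusted p under 0.05 numbered 0, and 2 and 1 by the t-tests, 1 each with an intensity trend, on centred arrays and above the median signal, and 0 to 19 without a mouse. The 8 other pathway genes called became 2 and 1 by the t-tests, 2 at 2-fold and 3 to 15 without a mouse. The causes were not tested. With 1 mouse left in a group, it is assumed to vary like the other group. No paired analysis was made, since the mouse numbers identify single animals and give no pairing between the genotypes.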

Other observations

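The 3 genes whose values over the 4 mice were most like those of *Tlr7*, after each gene was centred on its own mean, were *Prelp*, a matrix proteoglycan (root mean square distance 0.0084 on the log2 scale), *Scaf4*, a factor of transcript termination (0.022), and *Rasal1*, a Ras GTPase-activating protein (0.0294). *Prelp* had log2 values of 6.04 (M47) and 6.03 (M49), against 5.11 (M30) and 5.16 (M55). In all, 39 genes lay within 0.1 of *Tlr7*. For *Tlr1* the nearest were *Acot5*, an acyl-CoA thioesterase (0.038), *9530002B09Rik* (0.0434) and *Gm11116* (0.0583), and 38 genes lay within 0.1. Over 4 mice many genes share a pattern by their number alone, so likeness here is a description of these arrays.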
